A study of Mus musculus with 24 samples.

Results

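Genes of the red cell lineage were followed in mouse skeletal muscle through 8 members: the α-globin genes Hba-a1 and Hba-a2, the β-globin genes Hbb-b1 and Hbb-b2, Alas2, Slc4a1, Epb42 and Ahsp. Members were taken by the gene name printed for each probe on the array. Of the 8 names, 7 were present as written, and Epb42 was found under its older symbol Epb4.2, which gave 10 probes of 56605 in all. A probe was kept when the scanner software had marked it well above background on 6 or more of the 8 arrays in any group, and 6 of the 8 members passed this filter. Epb42 and Ahsp, 2 of the 8, did not.

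Haemoglobin is built from a pair of α-globin and a pair of β-globin chains, each holding a haem group. Alas2 encodes the erythroid form of the enzyme that opens haem synthesis, and Ahsp a chaperone that keeps free α-globin stable. Slc4a1 encodes band 3, the anion exchanger of the red cell membrane, and Epb42 a membrane protein that binds band 3. These transcripts are made in erythroid precursors and persist in reticulocytes, the youngest circulating red cells, so whole-tissue RNA can carry them together with the blood of the tissue. In RNA of whole muscle, fewer cells of this lineage and less transcript per cell cannot be told apart.

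The study held 3 groups of 8 mice, with 1 one-colour oligonucleotide array for each. HFD_O3 stands for mice of the omega-3 lineage on the high fat diet, HFD_Cont for the control lineage on that diet, and STD_Cont for the control lineage on the low fat control diet. The sources used here do not give the strain, sex or age, the muscle, the length of the diets, any perfusion of the tissue or what the lineages are. Skeletal muscle markers were well above background in full, with 11 of 11 listed genes kept.

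The share of spots well above background ran from 52.0 to 60.7% over the arrays, and 0 spots were saturated. The arrays lay on 3 slides of 8. Slide 1 carried 3 HFD_O3, 3 HFD_Cont and 2 STD_Cont arrays, slide 2 carried 3, 2 and 3, and slide 3 carried 2, 3 and 3 in the same order. Array rows within a slide were not balanced: row 2 of slide 1 and row 1 of slide 2 held 0 STD_Cont arrays. Row 2 of slide 2 held 0 HFD_Cont arrays. Levels below are log2 intensities relative to each array's 75th percentile. Levels of different probes are not read as relative amounts of transcript. This holds also where a probe is called brighter or dim, and where neutrophil markers are summed.

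The globin probes did not separate gene copies. For Hba-a1 the array carried 2 probes, one in the coding sequence and one at the 3′ end, and for Hba-a2 it carried 1. The 3′ probe of Hba-a1 (chr11:32184427-32184486, mm9) and the Hba-a2 probe (chr11:32197245-32197304, mm9) share a run of 59 of their 60 bases. All 3 α-globin probes list a transcript of each gene in the array annotation. The Hbb-b2 probe lists a transcript that the Hbb-b1 probe also lists. Values of Hba-a1 and Hba-a2, and in part those of Hbb-b1 and Hbb-b2, are therefore repeated readings of like transcripts rather than independent genes. The 2 probes below show how far an α-globin and a β-globin reading differ at the level of sequence. They lie over matching parts of the coding sequences, and capitals mark the 25 identical bases among the 40 that overlap when the probes are set side by side without gaps. The longest run they share is 5 bases.
Hba-a1 probe: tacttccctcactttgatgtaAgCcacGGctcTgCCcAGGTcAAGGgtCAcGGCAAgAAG
Hbb-b2 probe: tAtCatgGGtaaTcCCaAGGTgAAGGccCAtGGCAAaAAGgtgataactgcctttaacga
The first maps to chr11:32183955-32184014 of mm9 on the plus strand, and the file gives no position for the second.

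Of the 8 members, 4 had a promoter in the RefSeq table used here (GRCm38.p6): Hba-a1, Hba-a2, Alas2 and Epb42. The 250 bases before the start are shown for 3 of them, since Hba-a1 and Alas2 moved together on these arrays while Epb42 stayed at background. Capitals mark GATAA, the core letters bound by GATA factors, and CACCC, the core letters of Krüppel-like factor sites, each on either strand. The Hba-a1 promoter lies at chr11:32283422-32283671 on the plus strand, that of Alas2 at chrX:150547167-150547416 on the plus strand and that of Epb42 at chr2:121036878-121037127 on the minus strand.
Hba-a1 promoter: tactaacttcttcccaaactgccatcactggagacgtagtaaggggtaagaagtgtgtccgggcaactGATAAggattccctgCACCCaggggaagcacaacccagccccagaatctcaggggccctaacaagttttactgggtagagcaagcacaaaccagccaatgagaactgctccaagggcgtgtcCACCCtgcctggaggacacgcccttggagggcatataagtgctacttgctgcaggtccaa
Alas2 promoter: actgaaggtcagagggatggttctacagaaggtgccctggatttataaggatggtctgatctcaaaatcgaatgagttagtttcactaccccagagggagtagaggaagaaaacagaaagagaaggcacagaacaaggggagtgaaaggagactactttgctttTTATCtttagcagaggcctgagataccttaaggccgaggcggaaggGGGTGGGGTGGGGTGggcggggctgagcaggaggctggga
Epb42 promoter: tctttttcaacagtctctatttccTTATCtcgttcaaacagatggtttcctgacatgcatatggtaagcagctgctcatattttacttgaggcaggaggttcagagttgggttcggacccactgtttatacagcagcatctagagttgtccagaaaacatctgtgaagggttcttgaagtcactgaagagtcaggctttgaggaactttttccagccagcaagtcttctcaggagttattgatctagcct
GATAA occurred once in each of the 3, at 182, 86 and 226 bases before the start in the order shown. CACCC occurred 2 times in Hba-a1, 3 times in Alas2 within a repeated stretch whose matches lie end to end, and 0 times in Epb42. Among 32851 promoter windows of the same length in the table, 22.6% held GATAA, 52% held CACCC, and 3302 windows held both. The upstream windows of Hba-a1 and Hba-a2 share a run of 247 of 250 bases. These matches describe the letters of the window and are not evidence of binding. The 3 promoters were chosen with the levels of their genes known, and whether matches go with levels was not tested.

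Both α-globin genes were measured well above background on all 24 arrays. Hba-a1, by its brighter 3′ probe, ranged over 8.12, 8.29 and 8.82 in HFD_O3 (lowest, median and highest of 8 arrays), over 8.14, 8.48 and 8.95 in HFD_Cont and over 8.36, 8.62 and 8.91 in STD_Cont. The groups overlapped over most of their range, and the HFD_O3 median lay below the lowest STD_Cont array. HFD_O3 5 and HFD_Cont 3 were the high arrays of their groups, and STD_Cont 2 and 1 those of STD_Cont. The coding probe of Hba-a1 ranged over 6.82, 6.97 and 7.48 in HFD_O3, over 6.90, 7.13 and 7.59 in HFD_Cont and over 6.98, 7.27 and 7.56 in STD_Cont. Its order of medians was the same as that of the 3′ probe. For Hba-a2 the values were 8.11, 8.26 and 8.79 in HFD_O3, 8.09, 8.44 and 8.91 in HFD_Cont, and 8.31, 8.58 and 8.85 in STD_Cont. The highest array of each group was again HFD_O3 5, HFD_Cont 3 and STD_Cont 2.

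The β-globin genes had the same order of medians, lowest in HFD_O3 and highest in STD_Cont. Hbb-b1 (probe at chr7:110976379-110976438, mm9) ranged over 1.76, 1.999 and 2.45 in HFD_O3, over 1.57, 2.06 and 2.70 in HFD_Cont and over 1.98, 2.20 and 2.46 in STD_Cont. HFD_Cont held both the lowest and the highest array of all 24, HFD_Cont 1 and HFD_Cont 3. Hbb-b2 ranged over 3.54, 3.67 and 4.10 in HFD_O3, over 3.52, 3.71 and 4.28 in HFD_Cont and over 3.72, 3.93 and 4.29 in STD_Cont. The groups overlapped for both genes.

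Alas2, the haem synthesis member (probe at chrX:147004993-147005052, mm9), ranged over 0.11, 0.28 and 0.85 in HFD_O3, over −0.016, 0.42 and 1.02 in HFD_Cont and over 0.44, 0.66 and 1.01 in STD_Cont. The median of each high fat group lay below the lowest STD_Cont array, and the highest array of all 24 was HFD_Cont 3. Slc4a1 (chr11:102210256-102210315, mm9) was a dim probe, well above background on 6 of 8 HFD_O3, 7 of 8 HFD_Cont and 7 of 8 STD_Cont arrays. It ranged over −4.21, −3.49 and −3.02 in HFD_O3, over −3.58, −3.27 and −2.91 in HFD_Cont and over −3.72, −3.08 and −2.37 in STD_Cont. Its lowest array was HFD_O3 6 and its highest STD_Cont 2, and the groups overlapped.

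**Figure D1:**
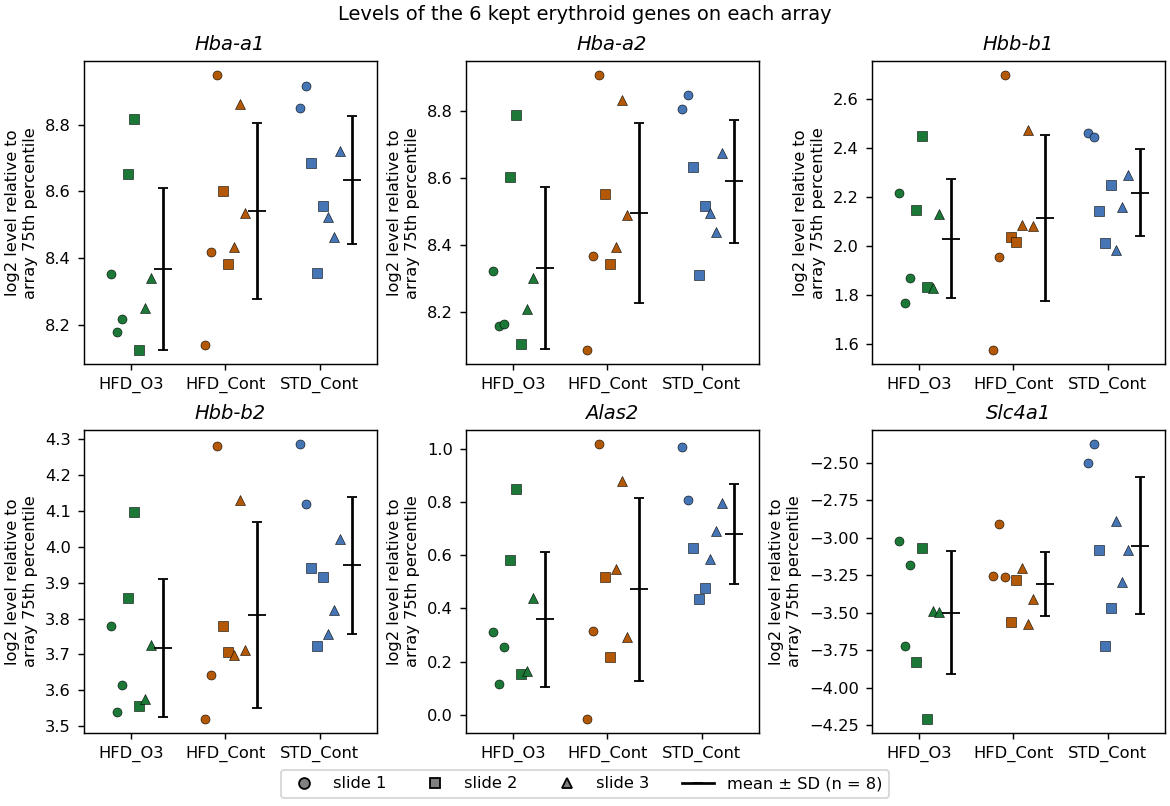
Log2 level relative to the array's 75th percentile (y axis) of the 6 kept erythroid genes on each array, by group (x axis). Points are arrays, their shape gives the slide, and bars are the mean ± SD of 8 arrays. For Hba-a1 the means are 8.37 in HFD_O3, 8.54 in HFD_Cont and 8.63 in STD_Cont, and the ranges overlap in every panel.

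Epb42 and Ahsp were not kept, since their probes were at background on most arrays. Of the 2 probes of Epb42, one was well above background on 1 of 8 HFD_O3, 0 of 8 HFD_Cont and 1 of 8 STD_Cont arrays, and the other on 0 of 24. Ahsp was well above background on 0 of 8 HFD_O3, 0 of 8 HFD_Cont and 1 of 8 STD_Cont arrays, and that array was STD_Cont 2. The embryonic and θ globin genes Hba-x, Hbq1a, Hbq1b and Hbb-y, with Hbb-bh1 and Hbb-bh2, were likewise not kept, and none of their probes was above background on more than 2 of 24 arrays. Hbb-bt, an adult β-globin gene, was above background on 24 of 24. Fitted by limma without the filter, Ahsp had −1.05 for HFD_Cont against STD_Cont, 0.36 for HFD_O3 against HFD_Cont and −0.69 for HFD_O3 against STD_Cont. Its unadjusted p was 0.0045, 0.293 and 0.0490, and its smallest adjusted p 0.186. Epb42 had −0.43, 0.53 and 0.096 in the same order (smallest adjusted p = 0.967). These differences rest on spots mostly not above background.

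HFD_Cont was compared with STD_Cont to see how the high fat diet acted within the control lineage. All 6 kept members were lower in HFD_Cont by some amount, and 0 passed the test. By limma with Benjamini-Hochberg adjustment over 19937 gene names, 0 of 6 members reached an adjusted p under 0.05, against 2.91% of all names, and 0 of 6 reached an unadjusted p under 0.05, against 16.6%. At that unadjusted level 2 members passed without HFD_Cont 3 and 1 with slide as a block (smallest adjusted p = 0.230 and 0.271). For these and the other alternative fits below, the share of all names at the unadjusted level is not given. Among all names 49.2% had a change below 0. The median change of the members was −0.12 on the log2 scale, beside 0.0023 over all names.

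Hba-a1 averaged 8.54 ± 0.26 in HFD_Cont and 8.63 ± 0.19 in STD_Cont (SD, n = 8 each), a log2 difference of −0.093 ± 0.114 (SE, adjusted p = 0.760). The 95% interval ran from −0.33 to 0.14. Alas2 averaged 0.47 ± 0.34 in HFD_Cont and 0.68 ± 0.19 in STD_Cont, a difference of −0.21 ± 0.13 (adjusted p = 0.467). Slc4a1 averaged −3.31 ± 0.21 in HFD_Cont and −3.05 ± 0.46 in STD_Cont, with the widest difference of the 6, −0.25 ± 0.18 (adjusted p = 0.532). The differences of Hba-a2, Hbb-b1 and Hbb-b2 were −0.094, −0.10 and −0.14. None of the 6 passed the test.

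Within slides the members had a median difference of −0.38 on slide 1, −0.075 on slide 2 and 0.0081 on slide 3. All 6 were lower on slide 1, 5 on slide 2 and 3 on slide 3. Slide 1 held only 2 STD_Cont arrays, STD_Cont 1 and 2, which had the 2 highest mean levels of the 6 members among all 24 arrays. A fit with slide and row of the array as blocks gave a median change of −0.27, and 3 members had an unadjusted p under 0.05 (smallest adjusted p = 0.211). There is no share of all names from this fit to set beside that count. On slide 2 no row held arrays of both groups. On slide 1 only row 1 did, with 1 HFD_Cont array beside STD_Cont 1 and 2. How far this layout shaped the larger median was not tested.

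HFD_O3 was set against HFD_Cont to compare the lineages on the high fat diet. All 6 kept members were again lower in HFD_O3 by some amount, beside 55.8% of all names, and again 0 of 6 passed, where 0% of all names did. At an unadjusted p under 0.05 limma gave 0 of 6 members, against 7.08% of all names, with 2 members without HFD_O3 5 and 1 without HFD_Cont 1 (smallest adjusted p = 0.576 and 0.767). The median change was −0.14, beside −0.014 over all names. Hba-a1 averaged 8.37 ± 0.24 in HFD_O3 and 8.54 ± 0.26 in HFD_Cont (SD, n = 8 each), a difference of −0.17 ± 0.11 (SE, adjusted p = 0.765, 95% interval −0.41 to 0.062). For Slc4a1 the difference was −0.19 ± 0.18 and for Hba-a2 −0.16 ± 0.11. Alas2 had −0.11 ± 0.13, Hbb-b2 −0.091 ± 0.105 and Hbb-b1 −0.085 ± 0.127. Within slides the median was −0.19 on slide 1, 0.072 on slide 2 and −0.25 on slide 3. On slide 2 the 4 globin genes and Alas2 were higher in HFD_O3, and Slc4a1 alone was lower, with −0.28.

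HFD_O3 and STD_Cont differ in both diet and lineage. Each of the 6 members was lower in HFD_O3, with a median change of −0.26 beside −0.015 over all names, of which 55.7% were below 0. No member passed: by limma 0 of 6 had an adjusted p under 0.05 (smallest 0.315), against 0.597% of all names. At an unadjusted p under 0.05 there were 5 of 6, all lower, against 6.39% of all names lower and 11.2% in either direction at that level. The members share arrays and, for the globins, transcripts, so these 5 are not 5 independent readings, and this comparison shares its groups with the other 2.

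Alas2 averaged 0.36 ± 0.25 in HFD_O3 and 0.68 ± 0.19 in STD_Cont (SD, n = 8 each). The difference was −0.32 ± 0.13 (SE, adjusted p = 0.327), a level 0.801 times that of STD_Cont, and 7 of 8 HFD_O3 arrays lay below the STD_Cont median. Slc4a1 averaged −3.50 ± 0.41 in HFD_O3 and −3.05 ± 0.46 in STD_Cont, a difference of −0.45 ± 0.18 (adjusted p = 0.315), with 6 of 8 HFD_O3 arrays below that median. Since its probe was not above background on 2 HFD_O3 arrays and 1 STD_Cont array, the size of this difference rests in part on dim spots.

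Hba-a1 averaged 8.37 ± 0.24 in HFD_O3 and 8.63 ± 0.19 in STD_Cont, a difference of −0.27 ± 0.11 (SE, adjusted p = 0.362), or 0.831 times. Its coding probe gave −0.23 ± 0.11 in a fit of all 29245 kept probes (adjusted p = 0.456). Hba-a2 had −0.26 ± 0.11 and Hbb-b2 −0.23 ± 0.11. Hbb-b1 had −0.19 ± 0.13 and was the member with an unadjusted p over 0.05, at 0.150. In none of the 6 did the 2 groups separate, although for Hba-a1 the 95% interval, −0.50 to −0.031, lay below 0 before adjustment.

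**Figure D2:**
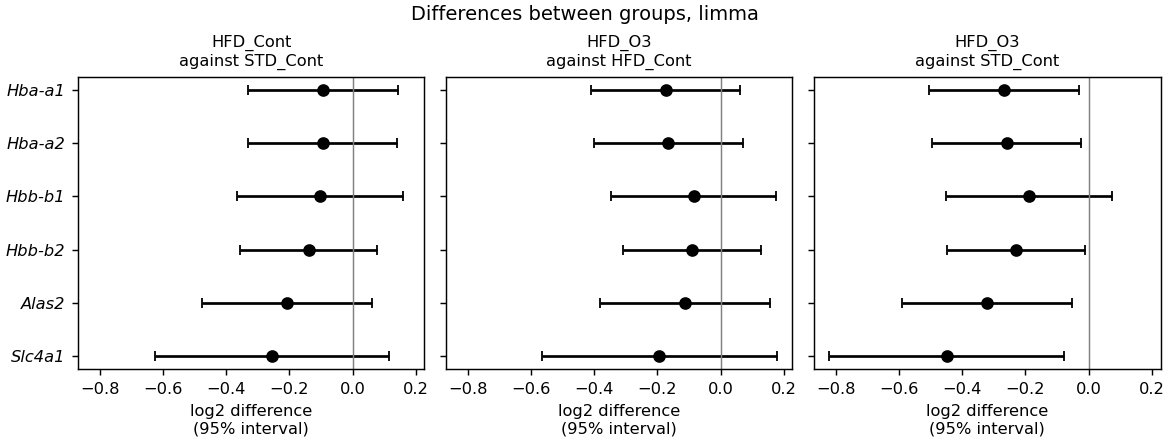
Log2 difference between groups (x axis) for the 6 kept erythroid genes (y axis) in the 3 comparisons, from limma on 24 arrays. Points are differences and bars unadjusted 95% intervals. All 18 points lie below 0, and the bars leave out 0 for 5 genes in HFD_O3 against STD_Cont and for 0 genes in the other panels.

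The difference between HFD_O3 and STD_Cont was uneven over slides. The median over members was −0.62 on slide 1, 0.0027 on slide 2 and −0.28 on slide 3. For Alas2 the means on slide 1 were 0.23 in 3 HFD_O3 arrays and 0.91 in 2 STD_Cont arrays, a difference of −0.68. On slide 2 they were 0.53 in HFD_O3 and 0.51 in STD_Cont, a difference of 0.013, and on slide 3 they were 0.30 and 0.69 in the same order, a difference of −0.39. Hba-a1 had −0.63, −0.0012 and −0.27 on slides 1, 2 and 3. Slc4a1 was lower on each slide, with −0.87, −0.28 and −0.40.

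The count of 5 members at an unadjusted p under 0.05 depended on single arrays. It was 0 without STD_Cont 1, 1 without STD_Cont 2 or HFD_O3 6, 2 without HFD_O3 2 or HFD_O3 3, and 3 without HFD_O3 7 or STD_Cont 8. All 6 members stayed lower in each of the 24 fits that left out 1 array. With slide 1 left out, an alternative chosen after seeing the data, the median was −0.11 and 0 members had an unadjusted p under 0.05. With blocks for slide and row the median was −0.39, 5 members had an unadjusted p under 0.05, and the smallest adjusted p was 0.0952, for Slc4a1. There is no share of all names from this fit to set beside that count. On slide 2 only row 2 held arrays of both groups, 1 of HFD_O3 and 3 of STD_Cont. That 1 array was HFD_O3 6, which had the lowest mean level of the 6 members among all 24 arrays. How far this layout shaped the larger median was not tested. With quantile normalization, median scaling or the authors' deposited values the count was 2.

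**Figure D3:**
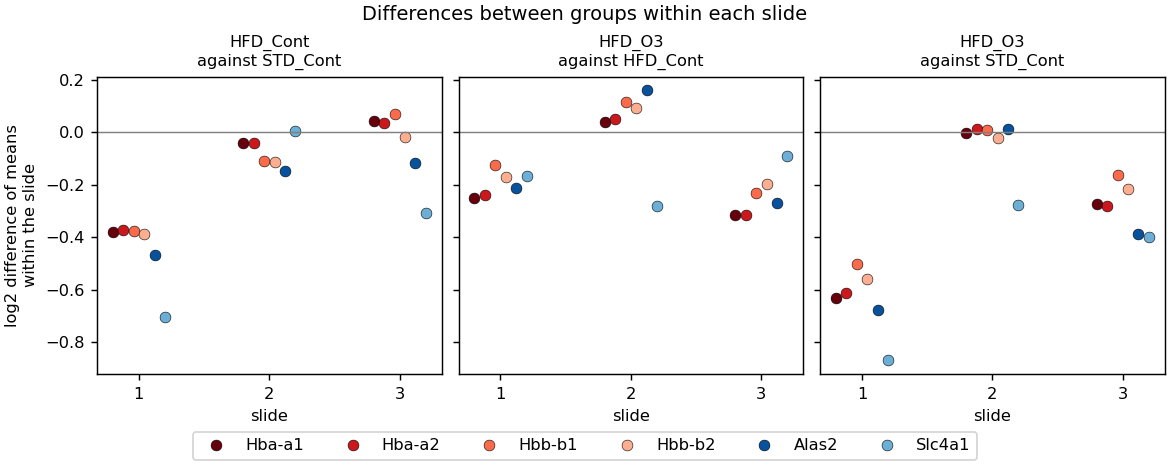
Log2 difference of group means within each slide (y axis) for slides 1, 2 and 3 (x axis) in the 3 comparisons. Each point is 1 gene. In HFD_O3 against STD_Cont the points of slide 1 run from −0.87 to −0.50, and those of slide 2 from −0.28 to 0.013.

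The members varied together from array to array within groups. Over the 24 arrays, the 10 pairs among Hba-a1, Hba-a2, Hbb-b1, Hbb-b2 and Alas2 had Pearson correlations from 0.906 to 0.999, and from 0.909 to 0.999 after group means were removed. Hba-a1 and Hba-a2 differed by an SD of only 0.012 over arrays. Alas2, a gene of another chromosome and another protein class, followed Hba-a1 with r = 0.924 and Spearman's rho = 0.914. Of 20 relations with Hba-a1 computed, the permutation p of this one was 1e-05 for both measures, the smallest that 100000 resamples can give (adjusted p = 4e-05). Within slides 1, 2 and 3 that r was 0.974, 0.935 and 0.810, and without STD_Cont 2 and HFD_Cont 3, the arrays farthest from the median of Hba-a1, it was 0.912. The SD of Alas2 over arrays was 0.29, and the SD of its difference from Hba-a1 was 0.11.

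Hbb-b2 followed Hba-a1 with r = 0.947 and rho = 0.929, and Hbb-b1 with r = 0.906 and rho = 0.861 (permutation adjusted p = 4e-05 for each measure of both). Slc4a1 was looser, with r = 0.473 and rho = 0.34 (permutation p = 0.0188 and 0.106, adjusted p = 0.0453 and 0.212). Its r was 0.394 without the 2 farthest arrays, 0.343 after group means were removed, and 0.652, 0.725 and 0.073 within slides 1, 2 and 3. Low signal of the Slc4a1 probe goes with this, and its part in the looser relation was not tested. All probes of an array share its RNA, labelling and scaling.

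**Figure D4:**
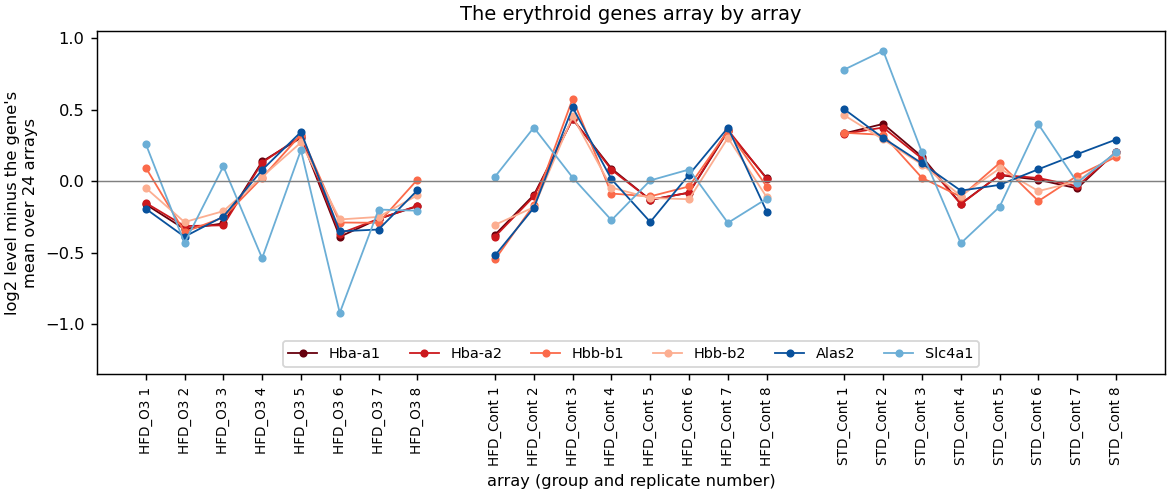
Log2 level minus the gene's own mean over 24 arrays (y axis) on each array (x axis), with 1 line per gene. The 4 globin genes and Alas2 trace nearly the same line, with peaks at HFD_O3 5, HFD_Cont 3 and 7, and STD_Cont 1 and 2, and Slc4a1 departs from it, for instance on HFD_Cont 7.

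As a description, the mean of the 6 members, each centred on its own mean, ran from −0.43 on HFD_O3 6 to 0.46 on STD_Cont 1. The median was −0.16 in HFD_O3, −0.048 in HFD_Cont and 0.092 in STD_Cont, and the ranges were −0.43 to 0.30, −0.35 to 0.41 and −0.17 to 0.46 in the same order. The spread within groups was moderate for this array set. The residual SD of Hba-a1 was 0.24 and exceeded that of 65.1% of gene names, that of Alas2 was 0.27 and exceeded 72.1%, and that of Slc4a1 was 0.38 and exceeded 85.4%, where the median name had 0.18.

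The gene names whose levels were most like the mean of the 6 members were sought among 13569 plain symbols outside the members. Hbb-bt came first, with r = 0.925 over 24 arrays and 0.908 after group means were removed. It is an adult β-globin gene, as are Hbb-b1 and Hbb-b2, whose levels are part of that mean. Whether its probe reads transcripts of those members was not tested, so it may not be an independent reading. Zdhhc22, a gene of the palmitoyltransferase family, had 0.760 and 0.745, and Foxp1, a transcription factor gene, 0.722 and 0.621. Rec114, Adamts10, Tent5c and Slc35d2 were also among the first 8 names, with r from 0.612 to 0.676. After group means were removed, Igkv4-72, Cers4 and Fam63a entered the first 8 with 0.678, 0.661 and 0.645, where Hbb-bt, Zdhhc22, Adamts10 and Rec114 stood as well.

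Hbb-bt had log2 differences of −0.17 ± 0.12 (SE) for HFD_Cont against STD_Cont, −0.10 ± 0.12 for HFD_O3 against HFD_Cont and −0.27 ± 0.12 for HFD_O3 against STD_Cont (smallest adjusted p = 0.374). It passed in none of the 3 comparisons.

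Other erythroid genes were taken by list. Of 13 haem synthesis genes written, all 13 were kept, and 0 rose and 0 fell in the 3 comparisons. Alas1, the form of the first enzyme used outside the red cell lineage, came closest, with −0.24 ± 0.07 (SE) for HFD_O3 against STD_Cont (adjusted p = 0.120). The mean level of that list had r = −0.046 with Hba-a1 (rho = −0.073, permutation adjusted p = 0.982 and 0.814).

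Of 19 genes of the red cell membrane and surface, 13 were kept. In HFD_Cont against STD_Cont 1 of these rose, 1 fell and 11 did not pass, where 2.91% of all names passed. Ank1, the gene of ankyrin-1, with muscle isoforms as well as the red cell form, rose by 0.37 ± 0.08 on the log2 scale (SE, adjusted p = 0.0145). Aqp1, the water channel gene, which capillary endothelium also expresses, fell by 0.28 ± 0.08 (adjusted p = 0.0482). Ank1 passed in 24 of the 24 fits without one array, with an adjusted p of at most 0.0358. Aqp1 passed in 6 of them, those without HFD_O3 1, 2, 4 or 7 or STD_Cont 2 or 6, and in the others its adjusted p reached 0.106 with changes from −0.32 to −0.23 over all 24. Neither passed with slide and row as blocks (adjusted p = 0.113 for Ank1 and 0.219 for Aqp1) or with slide 1 left out (0.121 and 0.230). Rhag, Kel, Add2 and Cldn13 were among those not kept, and each was above background on at most 2 of 24 arrays. In the other 2 comparisons 0 of the 13 passed, where the smallest unadjusted p for HFD_O3 against STD_Cont was that of Slc2a1, a glucose transporter gene, with −0.28 ± 0.10 (adjusted p = 0.267). The mean level of the 13 had r = 0.217 and rho = 0.227 with Hba-a1 (permutation adjusted p = 0.517 and 0.442).

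Regulators and receptors of erythropoiesis gave 8 kept genes of 14, with 0 called in any comparison. Their mean level had r = 0.0011 and rho = −0.0052 with Hba-a1 (permutation adjusted p = 0.996 and 0.983). Gata1 was above background on 0 of 24 arrays, Nfe2 on 1, Klf1 on 2 and Gfi1b and Myb on 3 at most. Among late erythroid and reticulocyte genes, 19 of 21 names were kept and 0 passed. Tent5c had −0.49 ± 0.15 (SE) for HFD_O3 against STD_Cont (adjusted p = 0.141). Probes under its older symbol Fam46c, counted as a name of its own, gave −0.061 ± 0.083 in the same comparison, so the readings of this gene disagreed. The mean of that list, which holds Tent5c, had r = 0.644 and rho = 0.687 with Hba-a1 (permutation adjusted p = 0.00143 and 0.00127), with 0.737, 0.632 and 0.520 within slides 1, 2 and 3, and 0.615 without the 2 farthest arrays.

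Of the 11 kept genes that clear haemoglobin and haem, 2 fell in HFD_Cont against STD_Cont, 0 rose and 9 did not pass. Among all names 2.91% passed in that comparison. Hmox1, the haem-degrading enzyme gene, averaged 1.02 ± 0.19 in HFD_Cont and 1.74 ± 0.26 in STD_Cont (SD, n = 8 each) and fell by 0.72 ± 0.13 (SE, adjusted p = 0.0103). Flvcr1, a haem exporter gene, averaged 1.82 ± 0.57 in HFD_Cont and 2.62 ± 0.27 in STD_Cont and fell by 0.81 ± 0.21 (adjusted p = 0.0371). Hmox1 passed whichever array was left out, with an adjusted p of at most 0.0265. Flvcr1 did not pass without HFD_Cont 1, 4, 6 or 8 or STD_Cont 1, 2, 3, 4 or 7, where its adjusted p reached 0.0783, and its change lay between −0.91 and −0.68 over the 24 fits. With slide and row as blocks Hmox1 did not pass, with −0.74 (adjusted p = 0.0740), and Flvcr1 did (adjusted p = 0.0363). With slide 1 left out neither passed (adjusted p = 0.151 for Hmox1 and 0.227 for Flvcr1). Cd163, the haemoglobin-haptoglobin receptor gene of macrophages, had −0.57 ± 0.16 and did not pass (adjusted p = 0.0506), but passed under 8 of 18 other settings and in 6 of the 24 fits without one array, those without HFD_O3 1, 4, 6 or 7, HFD_Cont 2 or STD_Cont 6 (adjusted p from 0.0235 to 0.0484). For HFD_O3 against STD_Cont the values were −0.40 ± 0.13 for Hmox1, −0.62 ± 0.21 for Flvcr1 and −0.55 ± 0.16 for Cd163 (adjusted p = 0.192, 0.202 and 0.122). Without HFD_O3 7 the differences of Hmox1 and Cd163, −0.50 and −0.65, passed in that comparison (adjusted p = 0.0276 for both). Hp, the gene of haptoglobin, which binds free haemoglobin, averaged 3.13 ± 1.19 in HFD_Cont and 0.98 ± 1.37 in STD_Cont, a difference of 2.15 ± 0.88 that did not pass (SE, adjusted p = 0.204). The mean of this list had r = 0.470 and rho = 0.474 with Hba-a1 (permutation adjusted p = 0.0453 and 0.0507). Without Hp, whose level varied widely and which was left out after its values were seen, the mean of the other 10 genes had r = 0.307 and rho = 0.339.

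Markers of other blood and tissue cells were set beside the members. The neutrophil markers, of which 6 of 11 were kept, had r = 0.478 and rho = 0.483 with Hba-a1 (permutation adjusted p = 0.0453 and 0.0507), and 0.611, 0.391 and 0.318 within slides 1, 2 and 3. Their summed linear level ranged from 137 to 188 in HFD_O3, from 127 to 170 in HFD_Cont and from 138 to 190.0 in STD_Cont, and the probe of Csf3r, a receptor gene of the lineage, gave at least 96.9% of that sum on each array. That share is one of probe signal and not of transcript amounts. Without Csf3r, left out after its values were seen, the sum ranged from 1.38 to 2.66 in HFD_O3, from 1.44 to 2.62 in HFD_Cont and from 1.39 to 4.53 in STD_Cont. In that list Lcn2 fell by 0.62 ± 0.14 in HFD_Cont against STD_Cont (SE, adjusted p = 0.0232), where 0 of the 6 rose and 5 did not pass. The share of all names that passed there was 2.91%. Among the defining genes of these cells, S100a9 and Elane were above background on 24 of 24 arrays, Camp on 22 and S100a8 on 18, and Mpo, Ltf, Ngp, Retnlg and Cxcr2 on at most 3. Platelet, B cell, T cell and macrophage markers had r between −0.127 and 0.126. Endothelial markers had r = 0.010, smooth muscle and pericyte markers 0.334, white adipocyte markers 0.356 and skeletal muscle markers 0.075, with adjusted permutation p values from 0.173 to 0.996 for these 8 lists. Of the 9 endothelial markers, all kept, 1 rose, 0 fell and 8 did not pass in HFD_Cont against STD_Cont, beside 2.91% of all names passing. By some amount 5 of the 9 were lower, as were 49.2% of all names. The gene that rose was Kdr, a vascular growth factor receptor gene, by 0.45 ± 0.10 (SE, adjusted p = 0.0210). Cldn5, a tight junction gene of endothelium, had −0.41 ± 0.15 and did not pass (adjusted p = 0.145). Lcn2 and Kdr passed in 24 of 24 fits without one array, and neither with slide 1 left out (adjusted p = 0.151 and 0.146). With slide and row as blocks Lcn2 passed (adjusted p = 0.0485) and Kdr did not (adjusted p = 0.0935). The part of blood content or of other cells in the differences of the members was not tested.

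**Figure D5:**
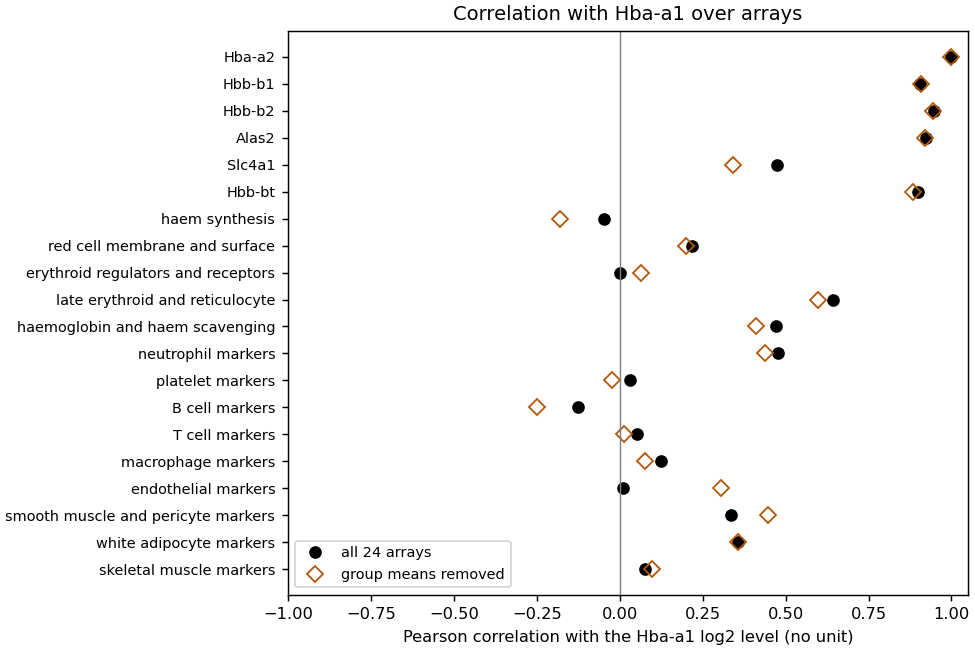
Pearson correlation of each item with the Hba-a1 log2 level over 24 arrays (x axis, no unit), for members, Hbb-bt and the mean of each gene list (y axis). Filled circles use all arrays and open diamonds the values after group means were removed. The globin genes and Alas2 lie between 0.898 and 0.999, Slc4a1 at 0.473, and the highest list, late erythroid and reticulocyte genes, at 0.644.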

How the data were processed

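Total RNA of mouse skeletal muscle was hybridised to one-colour Agilent arrays; per the labels' protocols, 200 ng was labelled with Cy3. Spots were quantified with Agilent Feature Extraction 10.10.1.1, per the file headers, which place probes on mm9. The deposited files of the scanner give spot intensity, raw and after the software's background subtraction, with no scaling between arrays. A deposited value table of log2 values by the authors was made with limma, per the submitters' processing notes. Tested here, its 30124 probes tracked the log2 median signal (lowest r = 0.9996) with column medians between 7.694 and 7.699. Its filter is not stated, it was used as an alternative, and it holds every kept member probe.

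Spots flagged as outliers were dropped, repeat spots of a probe averaged, and log2 processed intensity scaled by each array's 75th percentile. Of 56605 probes 29245 were kept and gave 19937 names, the brightest probe standing for each. The RefSeq table (GRCm38.p6) named 32991 probes, and the array design the others. Groups were compared with limma 3.58.1 in R 4.3.3 (lmFit, eBayes, two-sided) on all 24 arrays without a block, adjusted by Benjamini-Hochberg over all names at a threshold of 0.05. The limma fit was also run on simulated data with known changes, drawn with the means and spreads of these data. The draws held no slide or row effects, and the planted changes were larger than the members' differences over all 24 arrays. They therefore say nothing on detecting differences of that size. The number of arrays, 8 per group, limits precision. Correlations used 100000 permutations, figures matplotlib 3.10.9 and tables pandas 2.3.3.

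The members and gene lists were chosen with earlier results of these data known. Named were all members by every probe, in each other list the genes past the threshold or otherwise up to 3 with the smallest unadjusted p, of which the text gives a selection, and the 8 names most like the members; some names are not reported here. Genes named for lying at or near background were chosen after their values were seen. Replicate numbers come from the sample titles. Deviations of same-numbered arrays correlated above 0.1 in only 2 of 8 pairs per comparison, so the numbers were not taken to pair the mice.

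Alternatives changed the background (normexp, offset 50), the scaling (quantile, median, the deposited table), the filter (none, or all arrays) and the choice among probes of a gene (mean, or each probe tested). Others took slide, slide with row, or replicate number as a block, slide as a random effect, or 1 slide at a time, fitted 2 groups only, used trended robust variances or array weights, or left out 1 array. Leaving out slide 1 was added after seeing the data.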

Additional observations from a re-analysis of the deposited data

Results flagged for a closer look

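Only Epb42 and Ahsp, the 2 members at background, gave an array that stood far from the others of its group, in 3 of 30 groups of 8 tested over the 10 probes, and chance gives such a value in about 1 of 20 groups. One Epb42 probe, with 1 spot per array, read −1.23 on HFD_O3 2, well above background, where the next HFD_O3 array read −5.79. The same probe read −2.13 on STD_Cont 8, well above background, with the next STD_Cont array at −5.63. The other Epb42 probe was not above background on either array. Ahsp read −4.08 on HFD_O3 2, not well above background, with the next HFD_O3 array at −5.27.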

How the results depend on the processing

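No member passed an adjusted p under 0.05 in any of the 3 comparisons under any alternative or in any of the 24 fits that left out 1 array (0 to 0 members). The median change of the members, −0.12, −0.14 and −0.26 for HFD_Cont against STD_Cont, HFD_O3 against HFD_Cont and HFD_O3 against STD_Cont, ran from −0.20 to −0.067, from −0.21 to −0.070 and from −0.33 to −0.22 over those 24 fits. It moved by more than the spread between arrays only within slide 1 (−0.38 and −0.62 for HFD_Cont against STD_Cont and HFD_O3 against STD_Cont) and within slide 2 (0.0027 for HFD_O3 against STD_Cont). Within slide 2 the sign turned to 0.0037 for Slc4a1 in HFD_Cont against STD_Cont. In HFD_O3 against HFD_Cont on that slide it turned to 0.039 for Hba-a1, 0.051 for Hba-a2, 0.12 for Hbb-b1, 0.093 for Hbb-b2 and 0.16 for Alas2, and in HFD_O3 against STD_Cont to 0.012 for Hba-a2, 0.0066 for Hbb-b1 and 0.013 for Alas2. Within slide 3 it turned for HFD_Cont against STD_Cont to 0.041 for Hba-a1, 0.036 for Hba-a2 and 0.070 for Hbb-b1. With slide 1 left out it turned in the same comparison to 0.012 for Hba-a1 and 0.011 for Hba-a2. A slide holds 2 or 3 arrays per group, and the cause was not tested.

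Among the other genes named, the sign turned to 0.13 for Hbb-bt in HFD_O3 against HFD_Cont within slide 2. In HFD_O3 against STD_Cont it turned to 0.18 for Hmox1 and 0.12 for Fam46c within slide 3, and to 0.0074 for Fam46c with slide 1 left out. Of the genes called in HFD_Cont against STD_Cont, Hmox1 passed under 13 of 18 other settings, Ank1, Flvcr1 and Lcn2 under 12, Kdr under 11 and Aqp1 under 4. None of the 6 passed within a single slide or with slide 1 left out, where fewer arrays were fitted.

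The background counts moved more. The 581 names for HFD_Cont against STD_Cont became 177 with median scaling, 135 with no filter, 73 with blocks for slide and row, 1166 with only the 2 groups, 1187 with array weights, and 0 within slides 1, 2 and 3 and with slide 1 left out, and ran from 182 to 977 with 1 array left out. The 119 for HFD_O3 against STD_Cont became 62, 46, 47 and 36 under the first 4 of these and 0 within each slide and with slide 1 left out, and ran from 68 to 343. For HFD_O3 against HFD_Cont the 24 fits gave 0 to 1. With the replicate number as a block, the 3 comparisons gave 628, 0 and 89 names, 0 members in each, and 2 members at an unadjusted p under 0.05 for HFD_O3 against STD_Cont in place of 5. Signal limits Epb42 and Ahsp, which were at background, and Slc4a1, which was near it.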
